A study of Rattus norvegicus with 6 samples.

Results

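Small noncoding RNAs are short, structured transcripts that mostly act inside ribonucleoprotein particles. Small nuclear RNAs (snRNAs) such as U1, U2, U4, U5 and U6 build the spliceosome, C/D box and H/ACA box small nucleolar RNAs (snoRNAs) guide chemical modification of ribosomal RNA, and small Cajal body RNAs (scaRNAs) do the same for snRNAs. 7SK RNA holds the transcription elongation factor P-TEFb in an inactive particle, signal recognition particle (SRP) RNA takes part in the delivery of secretory proteins to the endoplasmic reticulum, and in mammals most snoRNAs are cut from introns of host genes. In rat spinal cord these RNAs were read here from the deposited gene table, by name: every row called U followed by a number, 7SK, 5S_rRNA, 5_8S_rRNA, SNOR, snoU, SCARNA, Y_RNA, Metazoa_SRP, Vault or Mir and with at least 1 count over the 6 libraries. Of 30957 rows in the table, 3944 carried such a name and 1260 of these had counts, while the other 2684 had none.

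The libraries came from the ipsilateral side of the lumbar enlargement of adult female Wistar rats, with the meninges removed, on day 14. In the bone cancer pain (BCP) group, living Walker 256 cells, a rat breast carcinoma line, had been placed in the marrow cavity of the left tibia, and in the sham group the same cells had been killed by heat first. Each group had 3 libraries, and the labels do not say whether each was 1 rat, so p-values measure only the spread between these libraries. All were made from total RNA after removal of ribosomal RNA and sequenced as fragments, so they are not small RNA libraries. The RNA had been isolated with the RNeasy mini kit and purified with RNAClean XP. How much short RNA these steps kept was not tested, so levels cannot be read as those of the mature small RNAs. Of the 3944 named rows, 3512 span under 200 bases, and these held 28.1% of the small RNA counts. The cells were placed in the bone, and the cord was sequenced.

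Gene counts summed to between 11779485 and 15004290 per library, and mitochondrial rows took 3.84% to 4.92% of them. The labelled tissue was checked against marker genes. The summed level of 4 neuron markers was 5668 to 5845 CPM (counts scaled to library size by the trimmed mean of M-values) in sham and 4968 to 5507 in BCP, and that of 4 oligodendrocyte markers was 35836 to 40957 against 25534 to 28648. The summed level of 4 microglia and macrophage markers was 155 to 206 CPM in sham and 496 to 608 in BCP, that of 3 astrocyte markers 2769 to 3096 against 4736 to 6466 (1 of 3, Gfap, passed edgeR's test, and the highest sum is that of BCP 1, the one library high in Aqp4), and that of 3 T cell markers 0 to 0.135 against 7.43 to 11.6. The summed level of 4 epithelial tumour markers, keratins among them, was 1.14 to 2.03 CPM in sham and 1.71 to 2.87 in BCP. That of 2 red blood cell markers was 23.1 to 24.8 CPM in sham and 54.7 to 69.0 in BCP, and both passed edgeR's test. That of 3 markers of meninges and fibroblasts was 27.9 to 47.7 CPM against 42.1 to 97.3. These groups overlapped, and Col1a1 was high in BCP 1 alone, at 84.0 CPM. In whole tissue, a change in the number of cells of a type and a change in RNA per cell cannot be told apart.

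The table held 1 row with a miRNA name that had counts, Mir199a2, with 1 count in BCP 1 and 0 in the other libraries. None of the 11 immune miRNA names and none of the 12 neural and glial miRNA names looked for, such as Mir155 and Mir124, was listed. RefSeq (build GRCr8) also files miRNA hairpins under 4 snoRNA and scaRNA symbols that occur among the 1260 rows. Their mature sequences are shown because these are the miRNA sequences to which any row of this set can be tied by name, 5′ to 3′, with the seed (bases 2 to 8) in capitals.
rno-miR-199a-5p (Mir199a2): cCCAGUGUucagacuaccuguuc
rno-miR-199a-3p (Mir199a2): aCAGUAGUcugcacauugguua
rno-miR-1839-5p (Scarna15): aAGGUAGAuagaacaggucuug
rno-miR-1839-3p (Scarna15): aGACCUACuuaucuaccaacag
rno-miR-1843a-5p (Scarna3): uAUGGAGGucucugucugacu
rno-miR-1843a-3p (Scarna3): uCUGAUCGuucaccuccauaca
rno-miR-3068-5p (Snora58): uUGGAGUUcaugcaaguucuaacca
rno-miR-3068-3p (Snora58): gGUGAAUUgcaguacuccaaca
rno-miR-3084d (Snora19): uUCUGCCAguccccuucagaca
No seed was shared among these 9 sequences. The match is by symbol, the builds differ, and a count over such a row does not measure the mature miRNA.

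The 4 SCARNA15 rows held 42, 41 and 47 counts in sham and 39, 36 and 31 in BCP, and the 3 SCARNA3 rows held 8, 6 and 8 against 9, 11 and 6. The SNORA58 row held 4, 6 and 4 counts in sham and 6, 5 and 5 in BCP. The 8 SNORA19 rows held 30, 32 and 39 counts in sham and 45, 58 and 32 in BCP. For SNORA19 and SCARNA15, whose rows could be tested once summed, log2FC was 0.53 (SE 0.26) and -0.18 (SE 0.24), and neither passed edgeR's quasi-likelihood test (adjusted p = 0.137 and 0.644).

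The question asked of the whole set was whether small RNA classes differed between BCP and sham cord. All 1260 rows together held 15118, 15504 and 17612 counts in sham and 11837, 14044 and 13347 in BCP. As a share of gene counts the groups did not overlap, and the means were 0.112% ± 0.00522 and 0.102% ± 0.00125 (SD, n = 3; exact two-sided permutation test, p = 0.1). That is the smallest p that a permutation of 3 against 3 libraries can give, so no class sum can pass 0.05 in this test.

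7SK RNA, SRP RNA and C/D box snoRNAs had lower summed levels in every BCP library than in every sham library. H/ACA box snoRNAs and U7, the latter on few counts, had higher ones. The 136 rows named 7SK summed to 734, 709 and 775 CPM in sham and 626, 624 and 627 CPM in BCP, a log2 ratio of -0.24. The 17 SRP RNA rows summed to 38.8, 25.9 and 41.8 CPM in sham and 24.5, 21.1 and 24.4 CPM in BCP, a log2 ratio of -0.60, with sham 2 close to the BCP libraries. The 235 SNORD rows, the C/D box class, summed to 155 ± 2.41 CPM in sham and 143 ± 3.81 in BCP, a log2 ratio of -0.12. Its repeat families SNORD113, SNORD115 and SNORD116 had means of 49.2, 24.7 and 41.2 CPM in sham. In BCP these means were 43.2, 19.6 and 35.7 CPM. Together these families fell by more than the whole class, so the sum of the other SNORD rows was not lower in BCP.

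The summed H/ACA box class was higher in BCP. Its 350 SNORA rows summed to 81.2, 73.2 and 79.9 CPM in sham and 83.0, 87.5 and 81.4 CPM in BCP, a log2 ratio of 0.10, and the lowest BCP library lay only just above the highest sham library. With 1 library left out the log2 ratio was 0.060 without sham 2, its lowest, and 0.134 without sham 1, its highest. The 9 rows of U7, the snRNA that processes histone mRNA ends, held 13, 15 and 13 counts in sham and 16, 17 and 15 in BCP. Sham 2 and BCP 3 held the same count, and the levels were low, at 0.972 ± 0.0861 CPM in sham and 1.23 ± 0.110 in BCP. When the U7 rows were summed before the fit, log2FC was 0.34 (SE 0.35) and did not pass edgeR's test (adjusted p = 0.522). Each of these 5 classes had an exact permutation p of 0.1, and 0.18 after Benjamini-Hochberg adjustment over the 9 classes above 1 CPM.

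The other classes above 1 CPM overlapped between the groups. Spliceosomal snRNAs, with 379 rows, summed to 52.8 ± 1.54 CPM in sham and 54.1 ± 0.847 in BCP (exact permutation p = 0.2). The 37 scaRNA rows summed to 44.9 ± 5.51 against 41.3 ± 0.820 CPM (p = 0.4, exact). The 61 rows of 5S rRNA, the small RNA of the large ribosomal subunit, summed to 6.57 ± 0.872 against 7.12 ± 0.792 CPM (p = 0.5, exact). Ribosomal RNA had been removed from these libraries, and how much 5S rRNA was left was not tested. The 5S values therefore cannot be read as levels in the cord. The 20 rows of other named snoRNAs, a class made by name and not by role, summed to 26.3 ± 4.86 against 22.7 ± 1.31 CPM (p = 0.4, exact). The snoU85 row held 80.2% of their counts. As a guide for U5 snRNA it belongs by role with the scaRNAs, so neither class sum is one of role. Sham 2 was the lowest sham library for spliceosomal snRNA, scaRNA, SRP RNA, 7SK, SNORA, SNORD and other named snoRNAs. It also had the smallest mitochondrial share of the sham libraries, 4.07% against 4.52% and 4.92%. Without sham 2 the log2 ratio was -0.79 for SRP RNA, -0.27 for 7SK, -0.21 for scaRNA (-0.12 with all libraries), -0.35 for other named snoRNAs (-0.21 with all libraries) and -0.12 for SNORD. The part of the mitochondrial share was not tested.

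**Figure D1:**
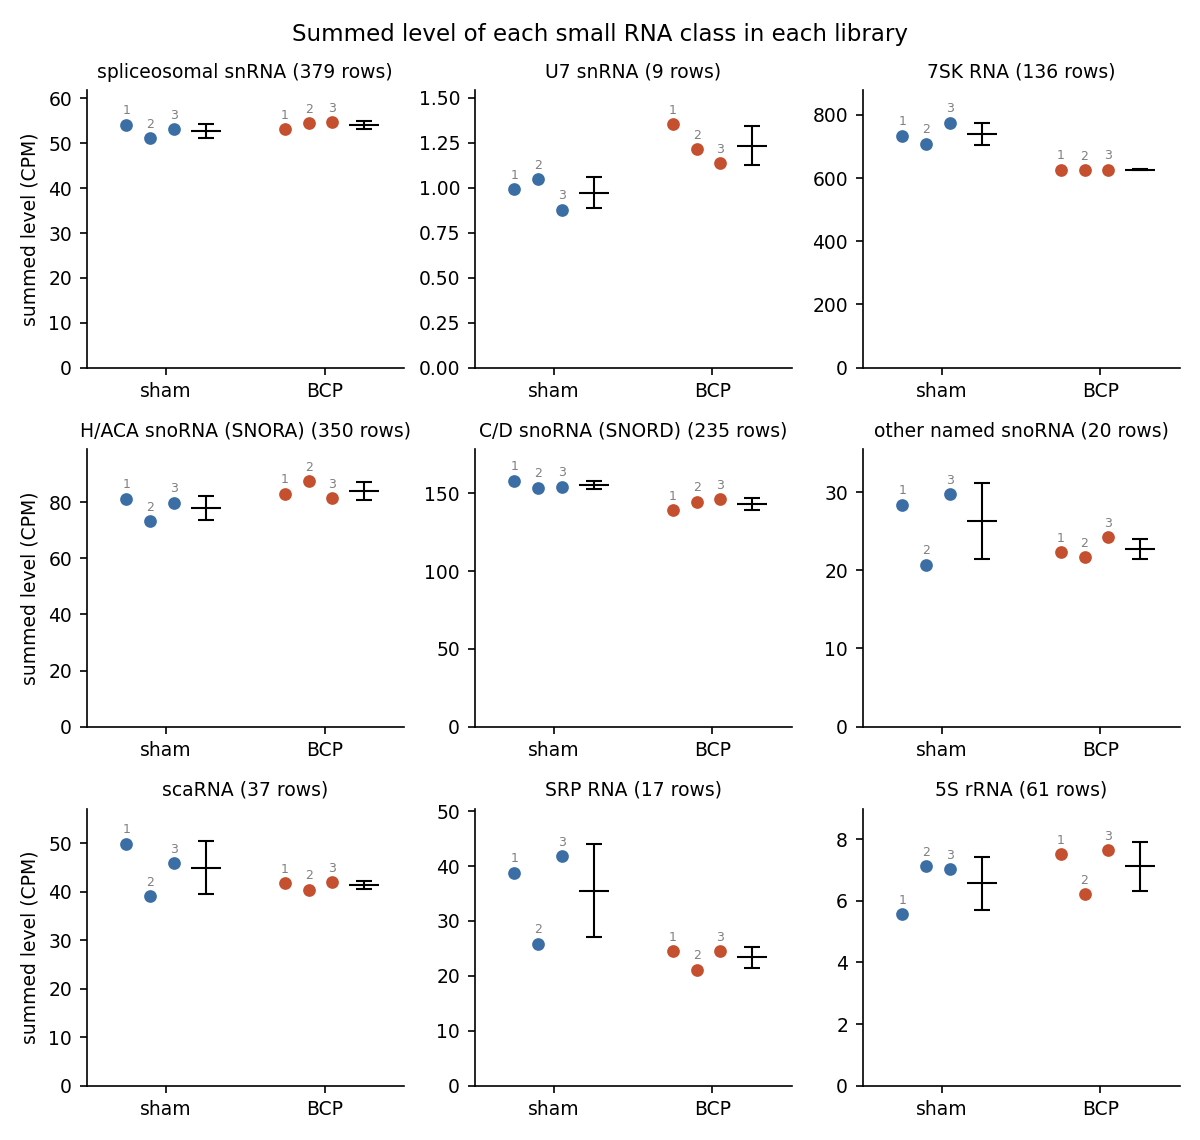
Summed level (CPM, vertical axes from 0) of the 9 small RNA classes above 1 CPM in each sham and BCP library; numbered points are libraries and the black bars the mean ± SD of 3. The 7SK points lie between 709 and 775 CPM in sham and between 624 and 627 in BCP, and sham 2 is the lowest sham point for 7SK, SRP RNA and scaRNA.

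Y RNA, vault RNA and 5.8S rRNA were near the limit of detection in these libraries. Ribosomal RNA had been removed before sequencing, and the paper reports that ribosomal reads were trimmed before mapping. How much 5.8S rRNA these steps left was not tested, so its counts cannot be read as its level in the cord. The 6 Y_RNA rows, RNAs bound by the Ro autoantigen, held 2, 3 and 3 counts in sham and 3, 8 and 7 in BCP. In CPM each BCP library lay above each sham library, at 0.451 ± 0.173 against 0.188 ± 0.0311 (exact permutation p = 0.1), and BCP 1 had no more counts than sham 2 or sham 3. The single vault RNA row held 2 counts in sham 2 and 1 in BCP 3. The 8 rows of 5.8S rRNA summed to 0.785 ± 0.114 CPM in sham and 0.710 ± 0.135 in BCP, with overlapping groups. None of these rows had enough counts to be tested.

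Most rows were too low to test one by one. A filter on low counts kept 125 of the 1260 rows and left out 1135. The kept rows had a median of 15 counts per library and a median SE of 0.36 on the log2 scale, against 313 counts and 0.10 over all 14908 rows tested. No small RNA row passed both an adjusted p of 0.05 and a log2FC beyond 1, where 6.45% of all tested rows did. edgeR's quasi-likelihood test gave 11 of the 125 an unadjusted p under 0.05 (8.80%, against 37.3% of all tested rows), and DESeq2 also called 0 past both thresholds.

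At an adjusted p under 0.05 alone, 5 of the 125 rows were down-regulated and 0 up-regulated, against 12.1% of all tested rows down and 15.8% up. DESeq2 found 4 down and 0 up. All 6 libraries kept the groups apart for 17 rows that were lower in BCP, where this holds for 19.8% of all tested rows, and for 11 that were higher, where it holds for 21.7%. The log2FC was below 0 in 77 of the 125 rows (61.6%, against 52.3% of all tested rows), and the medians were -0.09 and -0.01. By class, 37 of 55 SNORD rows and all 7 tested SRP rows had a negative log2FC, while 15 of 24 SNORA rows had a positive one. Of those SNORD rows, 25 belong to the repeat family SNORD113 in a single run on chromosome 6, and 21 of these were negative. Rows of a repeat family are not replicates of each other. Outside that run the signs of the SNORD rows were more evenly split.

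**Figure D2:**
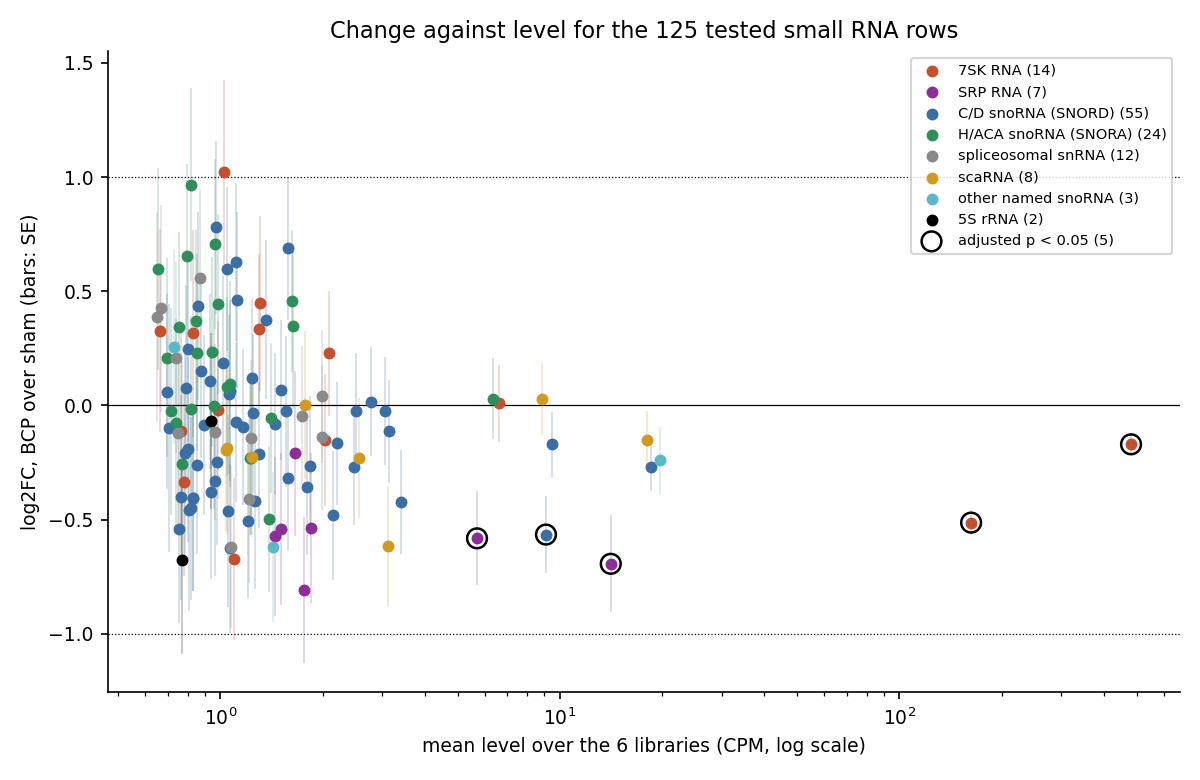
Change between BCP and sham (log2FC, bars are SE) against the mean level over 6 libraries (CPM, log axis) for the 125 tested small RNA rows, coloured by class, with dotted lines at a log2FC of 1 and -1. The 5 rows with an adjusted p under 0.05 (circled) all lie below 0 and are among the more abundant rows, and most other rows lie at about 1 CPM with wide bars.

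The 7SK result came from a pair of rows that together held 94.4% of the 7SK counts, and 7SK held 63.7% of all small RNA counts (not corrected for length). The row on chromosome 18 (chr18:40542094-40542431, Rnor_6.0, outside every other gene span) had 2398, 2619 and 3083 counts in sham and 1575, 1866 and 1795 in BCP. Every BCP library was below every sham library, at 134 ± 1.54 CPM against 191 ± 14.7, and log2FC was -0.51 (SE 0.05, adjusted p = 3.97e-07, edgeR's quasi-likelihood test). It was past the threshold in all 12 alternatives, with log2FC from -0.55 to -0.45.

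The row on chromosome 8 (chr8:85480292-85480622, also outside other gene spans) had 6723, 6967 and 7851 counts in sham and 5360, 6337 and 5991 in BCP. Its levels were 509 ± 22.1 CPM in sham and 453 ± 0.409 in BCP, again without overlap, and log2FC was -0.17 (SE 0.04, edgeR adjusted p = 0.00537). Without sham 3 the edgeR adjusted p was 0.0505 at a log2FC of -0.14. The deposited table does not say how reads that map to several copies were counted, so the split of reads between 7SK rows is uncertain.

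The ratio between both rows differed between the groups as well. The count of the chromosome 18 row divided by that of the chromosome 8 row was 0.357, 0.376 and 0.393 in sham and 0.294, 0.294 and 0.300 in BCP. This ratio does not depend on library scaling, and its groups did not overlap (0.375 ± 0.0180 against 0.296 ± 0.00317, exact permutation p = 0.1). The other 134 rows named 7SK summed to 38.6 ± 1.43 CPM in sham and 38.8 ± 1.51 in BCP. Of the 12 that could be tested, 7 had a positive log2FC, and the range was -0.67 to 1.02.

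The upper end of that range was a 7SK row inside Dock10 (chr9:86318155-86318466) with 14, 7 and 7 counts in sham and 19, 16 and 18 in BCP. Its log2FC of 1.02 (SE 0.40) did not pass edgeR's test (adjusted p = 0.0655), though it did without sham 1, at 1.48 (adjusted p = 0.0251). Dock10 itself had a log2FC of 0.14 (SE 0.05, adjusted p = 0.0564). Another abundant 7SK row, on chromosome 18 (chr18:4314467-4314748), had 86, 106 and 86 counts in sham and 86, 85 and 87 in BCP, a log2FC of 0.01 (SE 0.17).

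The genes of the 7SK particle did not pass the test in either direction. Of 7 listed, 6 could be tested. Hexim1, the inhibitor that 7SK brings to P-TEFb, was at 63.1 ± 4.14 CPM in sham and 58.1 ± 3.08 in BCP (log2FC -0.12, edgeR adjusted p = 0.221). Larp7, which binds and stabilises 7SK, had a log2FC of 0.15 (SE 0.11), and Cdk9, the P-TEFb kinase, one of -0.12 (SE 0.07). Ccnt2, the most abundant gene of the list, was at 134 ± 4.94 CPM in sham and 125 ± 2.48 in BCP (log2FC -0.09, edgeR adjusted p = 0.178). Ccnt2 and Hexim2 (log2FC -0.21, edgeR adjusted p = 0.351) were lower in every BCP library, as were 19.8% of all tested rows. The log2FC of the 6 ranged from -0.21 to 0.15. Mepce, which caps 7SK, is listed at 0 in all 6 libraries.

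SRP RNA had the most negative class median. The row with most counts (chr19:22476964-22477262, inside Neto2, an auxiliary subunit of kainate receptors) had 266, 173 and 296 counts in sham and 128, 126 and 166 in BCP. In CPM the groups overlapped, since sham 2 at 12.1 lay below BCP 3 at 12.6, and the log2FC was -0.69 (SE 0.21, edgeR adjusted p = 0.0388). The call was lost without sham 1, sham 3, BCP 1 or BCP 2, each left out alone, with edgeR adjusted p from 0.0854 to 0.155. Neto2 itself had a log2FC of -0.08 (SE 0.12), and per length the SRP row stood at 47.0 FPKM (the deposited level per length, mean of 6 libraries) and Neto2 at 12.4.

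A second SRP row (chr10:59151684-59151984, outside gene spans) had 97, 76 and 115 counts in sham and 67, 60 and 50 in BCP. Sham 2 again fell among the BCP libraries, and log2FC was -0.58 (SE 0.21, edgeR adjusted p = 0.0397). With DESeq2 the adjusted p was 0.105, and 6 of 12 alternatives kept it under 0.05. The other 5 tested SRP rows had log2FC from -0.81 to -0.21 and none passed. The row at chr5:74897005-74897291, inside Akap2, had 33, 22 and 40 counts in sham and 14, 15 and 21 in BCP, a log2FC of -0.81 (edgeR adjusted p = 0.0677). This row passed both thresholds without sham 2, at -1.02 (adjusted p = 0.0360).

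When the 17 SRP rows were summed before the fit, log2FC was -0.61 (SE 0.19, edgeR adjusted p = 0.0525). Of the 6 genes for SRP proteins, 0 passed edgeR's test in either direction, with log2FC between -0.12 and 0.12. Srp72, which binds the RNA together with Srp68, was at 51.7 ± 5.82 CPM in sham and 56.1 ± 2.14 in BCP.

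**Figure D3:**
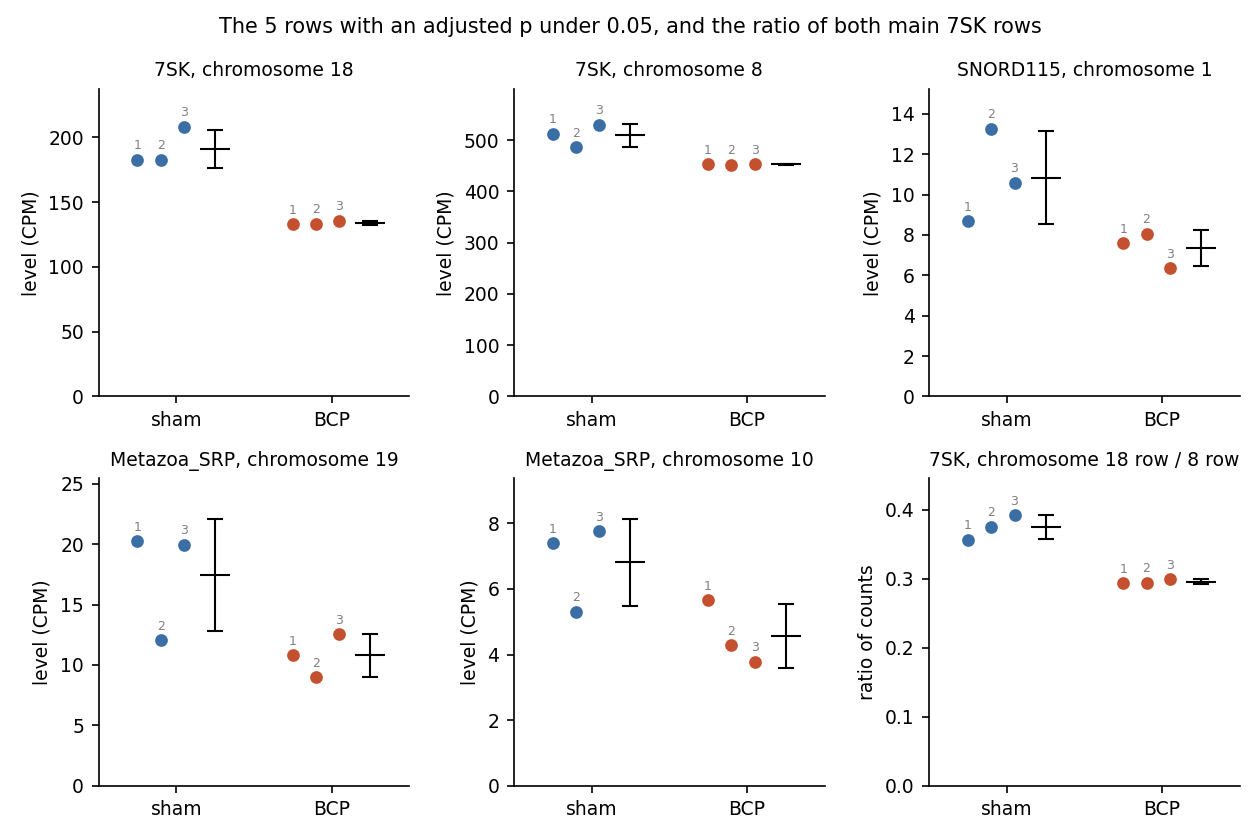
Level (CPM, vertical axes from 0) in each numbered library, with mean ± SD of 3, for the 5 small RNA rows with an adjusted p under 0.05, and the ratio of counts of the chromosome 18 to the chromosome 8 row of 7SK. Both 7SK rows, SNORD115 and the ratio separate the groups, and sham 2 falls among the BCP libraries in both SRP rows.

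Repeated families that lie in imprinted regions made up a large part of the tested C/D box snoRNA rows. SNORD115 and SNORD116 are brain-enriched repeats expressed from the paternal chromosome between Snrpn and Ube3a, and SNORD113 repeats are expressed from the maternal chromosome in the Dlk1 region. The SNORD115 row that passed the test (chr1:116751203-116751280) had 114, 190 and 157 counts in sham and 90, 113 and 84 in BCP. The groups did not overlap, and log2FC was -0.57 (SE 0.17, edgeR adjusted p = 0.0153). The call was lost without sham 2 (adjusted p = 0.129) or without BCP 3 (0.0832).

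Since copies of one repeat can share reads, rows of one name were also summed before the fit. This gave 73 tested names, of which 2 were lower at an adjusted p under 0.05 and 0 higher, with 12.2% of all features lower in that fit. They were 7SK, at a log2FC of -0.24 (SE 0.04, edgeR adjusted p = 0.000206), and SNORD115, at -0.33 (SE 0.10, edgeR adjusted p = 0.0128). The 28 SNORD115 rows summed to 296, 387 and 363 counts in sham and 230, 280 and 258 in BCP, or 24.7 ± 2.23 against 19.6 ± 0.302 CPM. All 28 lie on chromosome 1, in groups at chr1:56860067-56880620, chr1:116699082-116984105 and chr1:121563651-121580364. Each group was lower in every BCP library than in every sham library, which held for 19.8% of all tested rows. In the third group the ranges lay close, at 3.24 to 3.49 CPM in sham and 2.96 to 3.14 in BCP. The row that passed alone lies in the second group and is a large part of the sum, at 10.8 ± 2.30 CPM in sham and 7.34 ± 0.886 in BCP. By row, 2 of 2 tested in the first group, 3 of 4 in the second and 0 of 1 in the third had a negative log2FC. Over all tested rows this share was 52.3%. The summed names were not refitted with a library left out.

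SNORD116 fell short of the threshold. Its 18 rows summed to 525, 638 and 581 counts in sham and 433, 484 and 476 in BCP, a log2FC of -0.21 (SE 0.08, edgeR adjusted p = 0.0539). The most abundant row (chr1:194917277-194917369) had 255, 325 and 279 counts in sham and 205, 244 and 210 in BCP, a log2FC of -0.27 (SE 0.11, adjusted p = 0.0663), and passed with upper-quartile scaling (adjusted p = 0.0341). A further abundant row (chr1:121393847-121393939) had a log2FC of -0.17 (SE 0.14) and overlapping groups.

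SNORD113 had more tested rows than the other families. Of its 52 rows, 45 lie at chr6:133753217-133835425, where 21 of the 25 tested rows had a negative log2FC and 0 passed the test (range -0.51 to 0.60, median -0.21). Over all tested rows, 52.3% had a negative log2FC and 12.1% were lower at an adjusted p under 0.05. Those 45 rows summed to 51.0, 44.0 and 50.6 CPM in sham and 40.0, 42.3 and 45.3 in BCP, with sham 2 inside the BCP range. Summed over all 52 rows, log2FC was -0.18 (SE 0.08, edgeR adjusted p = 0.0881). The rows of one family overlap in sequence and are not replicates of each other.

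Protein-coding genes beside these repeats were read as well, chosen after the repeat values were seen. Snrpn (chr1:195074330-195096460), which encodes the neuronal Sm protein SmN and is transcribed with SNORD116, had 1815, 2159 and 2006 counts in sham and 1164, 1512 and 1325 in BCP. It was down-regulated with a log2FC of -0.47 (SE 0.06, edgeR adjusted p = 2.15e-06). Ube3a (chr1:116587815-116679973), a ubiquitin ligase at the other end, had a log2FC of 0.07 (SE 0.05). Dlk1 had one of -0.22 (SE 0.09, edgeR adjusted p = 0.0793) and Rtl1 one of -0.27 (SE 0.20). The summed neuron markers were lower in every BCP library (5668 to 5845 against 4968 to 5507 CPM), with 2 of 4 past edgeR's test, Rbfox3 and Nefl, and overlapping groups for Snap25 and Syt1. All 4 oligodendrocyte markers fell, with log2FC from -0.56 to -0.27. The part of either list in the snoRNA values was not tested.

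No snoRNA row was up-regulated at an adjusted p under 0.05, and the rows of smallest p on that side had few counts. SNORA3, inside the ribosomal protein gene Rpl27a (chr1:174134781-174134911), had 11, 6 and 6 counts in sham and 14, 15 and 13 in BCP, a log2FC of 0.97 (SE 0.42, edgeR adjusted p = 0.0988). Rpl27a was up-regulated, with a log2FC of 0.27 (SE 0.09, edgeR adjusted p = 0.0267). SNORA25, inside Fam49b (chr7:104532822-104532930), had 9, 9 and 13 counts against 13, 18 and 16, a log2FC of 0.71 (SE 0.37, edgeR adjusted p = 0.176). Fam49b, a regulator of Rac1, rose by 0.54 (SE 0.06) on the same scale.

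SNORD22 (chr1:224923832-224923957) had 17, 17 and 17 counts in sham and 28, 28 and 20 in BCP, a log2FC of 0.69 (SE 0.31, edgeR adjusted p = 0.113). It is one of 8 SNORD rows within chr1:224921637-224923957, an order of names known from the noncoding host gene Snhg1. These 8 rows summed to 4.27, 3.42 and 4.39 CPM in sham and 6.17, 5.28 and 4.69 in BCP, without overlap. SNORD74 (chr13:78852741-78852821) had 10, 12 and 8 counts in sham and 12, 17 and 19 in BCP, a log2FC of 0.78 (SE 0.38, edgeR adjusted p = 0.141). It lies in a run of 9 SNORD rows at chr13:78852741-78855688 whose names are those of the noncoding host gene Gas5. That run summed to 7.97 ± 0.707 CPM in sham and 9.18 ± 0.704 in BCP, with overlapping groups. Both runs were chosen after their values were seen.

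Abundant snoRNA and scaRNA rows inside protein-coding genes did not pass the test. SNORA81 in Eif4a2 (chr11:81376500-81376677), a ribosomal RNA guide, had 78, 94 and 95 counts in sham and 60, 101 and 92 in BCP, a log2FC of 0.03 (SE 0.18). SCARNA7 in Kpna4 (chr2:165695494-165695820) had 110, 108 and 152 counts against 120, 116 and 111, a log2FC of 0.03 (SE 0.16), whereas Kpna4, an importin, was up-regulated by 0.30 (SE 0.05). SnoU85 in Ncapd2 (chr4:157700593-157700920), a guide for U5 snRNA, had 307, 225 and 367 counts against 208, 242 and 254. Its log2FC was -0.24 (SE 0.15, edgeR adjusted p = 0.271), and -0.42 without sham 2 (adjusted p = 0.00825). Ncapd2, a condensin subunit, was up-regulated by 0.33 (SE 0.10, edgeR adjusted p = 0.0229).

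The remaining abundant rows of these classes also missed the threshold, some of them with groups that did not overlap. SCARNA13 (chr6:128749156-128749430), a scaRNA outside gene spans, had 65, 47 and 46 counts in sham and 23, 32 and 41 in BCP, lower in every BCP library (log2FC -0.61, SE 0.26, edgeR adjusted p = 0.0897). SnoU89, inside the prohibitin gene Phb2 (chr4:157233646-157233906), had 29, 19 and 25 counts against 13, 17 and 14, again without overlap (log2FC -0.62, SE 0.33, edgeR adjusted p = 0.181), and Phb2 had a log2FC of 0.07 (SE 0.07). On the other side of 0, SNORA62 in Rpsa (chr8:128807094-128807249), a gene for a small ribosomal subunit protein, had 17, 17 and 24 counts against 17, 32 and 25, with overlapping groups. Its log2FC was 0.46 (SE 0.31, edgeR adjusted p = 0.312), and Rpsa was up-regulated by 0.34 (SE 0.05). The most abundant SNORA19 row (chr9:16513857-16513987) had 19, 15 and 27 counts against 21, 38 and 13, where BCP 2 was the highest and BCP 3 the lowest of all 6 libraries. The 5S rRNA row in Frmd5 (chr3:113508348-113508427) had 15, 13 and 12 counts against 7, 7 and 9 (log2FC -0.68, SE 0.41), and its host was down-regulated by 0.35 (SE 0.07). The other tested 5S row, in Agap1 (chr9:96705077-96705194), had 8, 16 and 17 counts against 10, 12 and 14 and a log2FC of -0.07 (SE 0.39).

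Among the spliceosomal snRNA rows, the most abundant U4 row (chr19:11150956-11151123) had 33, 36 and 18 counts in sham and 27, 22 and 24 in BCP, a log2FC of -0.14 (SE 0.32). The U1 row in Fam222b (chr10:65358137-65358265) had 18, 24 and 33 counts against 18, 22 and 27, and the U6 row in Rnf14 (chr18:31444735-31444837) 29, 20 and 34 against 23, 31 and 25. Their log2FC were -0.04 (SE 0.31) and 0.04 (SE 0.29). The groups of all 3 rows overlapped, and none of the 12 tested spliceosomal rows passed edgeR's test.

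In all, 637 of the 1260 rows lie inside the span of another gene, and so do 60 of the 125 tested rows. Of 53 tested hosts, 16 had an adjusted p under 0.05 (27.9% of all tested rows did). The row stood higher per length than its host in 10 of 60 pairs of a row and a tested host. SnoU85 was at 59.9 FPKM and Ncapd2 at 5.78, while SNORA81 was at 35.8 and Eif4a2 at 222 (means of 6 libraries). How strand was used in counting is not given in the sources used here, so reads of a row and of its host's unspliced transcript cannot be told apart.

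SCARNA2, a guide RNA for U2 snRNA with a gene of its own, had different values in the deposited tables. In the gene table the row (chr2:211344017-211344432) had 304, 233 and 260 counts in sham and 182, 251 and 235 in BCP. The groups overlapped and log2FC was -0.15 (SE 0.13, edgeR adjusted p = 0.424). The deposited table of long noncoding RNAs (lncRNAs) lists the transcript NONRATT016788.2 with nearly the same span (chr2:211344017-211344442), with 304, 233 and 1 counts in sham and 2, 2 and 2 in BCP. Sham 1 and sham 2 held the same count in both tables, and the other 4 libraries held 1 or 2 counts in the lncRNA table against 182 to 260 in the gene table. The transcript did not pass the filter on low counts used here and was not tested.

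The abundant 7SK row on chromosome 8 is the only other one that shared at least 80% of its span with a listed lncRNA transcript, ENSRNOT00000079055. Its counts were the same in both tables in all 6 libraries. Fitted with the other lncRNAs, the same counts gave a log2FC of -0.14 (SE 0.04) and an edgeR adjusted p of 0.114, against 0.00537 with the gene table, where 0.395% of the 12157 tested lncRNA transcripts were lower at an adjusted p under 0.05 and 1.22% passed both thresholds in either direction. Short overlaps were more frequent, with 253 small RNA rows touching 256 lncRNA transcripts.

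**Figure D4:**
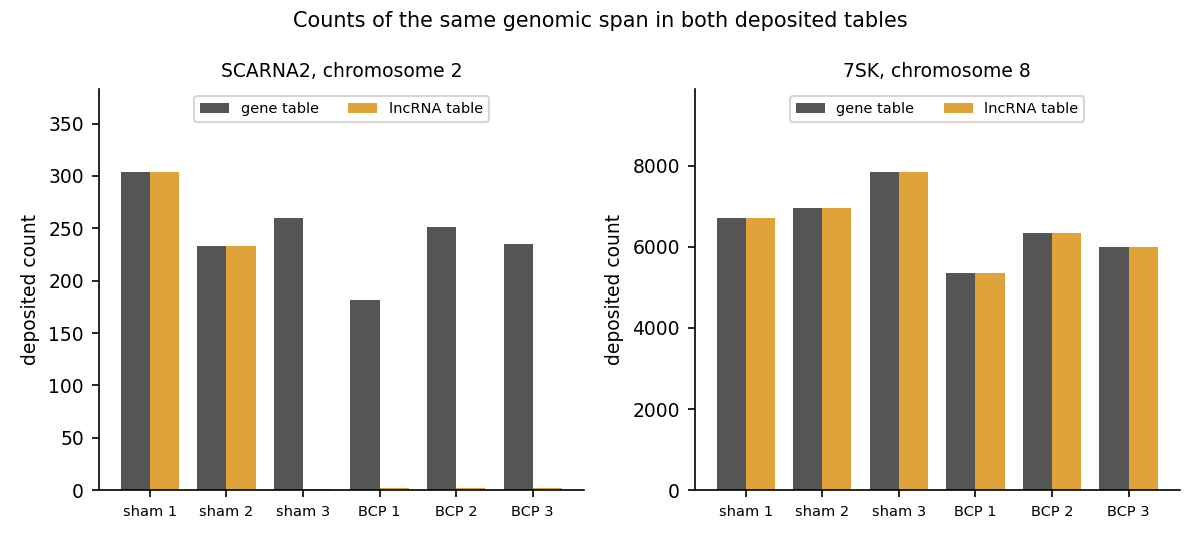
Deposited counts (vertical axes from 0) of the SCARNA2 span and of the 7SK row on chromosome 8 in each library, in the gene table (grey) and in the lncRNA table (orange). For SCARNA2 the tables hold the same count in sham 1 and sham 2 and differ in the other 4 libraries, and for 7SK all 6 pairs are equal.

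Related structured RNAs outside the name rule were read for comparison, after the values above were seen. RNase P RNA, which trims the leader of transfer RNA precursors, was down-regulated in the row at chr15:27738972-27739269, with 870, 726 and 1056 counts in sham and 560, 664 and 643 in BCP (log2FC -0.39, SE 0.11, edgeR adjusted p = 0.0208). Another RNase P row (chr1:246973112-246973539) had a log2FC of -0.38 (SE 0.10, edgeR adjusted p = 0.00748). The RNase P row at chr3:38449862-38450169 lay on the other side of 0, with 10, 29 and 17 counts in sham and 17, 19 and 22 in BCP. Its log2FC was 0.17 (SE 0.36, edgeR adjusted p = 0.776), and its groups overlapped. RNase MRP RNA, a relative that acts on ribosomal RNA precursors, had 2985, 2937 and 3800 counts in sham and 2649, 3129 and 2917 in BCP, a log2FC of -0.04 (SE 0.07) with overlapping groups.

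The proteins that bind, modify or transcribe small RNAs were read from 11 lists with 109 names, of which 104 were found and 102 tested. At an adjusted p under 0.05, 15 were up-regulated (14.7%, against 15.8% of all tested rows) and 5 down-regulated (4.90%, against 12.1%). Only Mvp, the major vault protein, passed both thresholds. It stood at 37.0, 31.7 and 32.1 CPM in sham and 87.1, 103 and 98.9 CPM in BCP, a log2FC of 1.52 (SE 0.08, edgeR adjusted p = 1.93e-11). The other vault proteins rose too, Tep1 by 0.91 (SE 0.09) and Parp4 by 0.67 (SE 0.08), while vault RNA itself had 3 counts in all. Microglia and macrophage markers were higher in the same libraries (155 to 206 against 496 to 608 CPM, summed), and their part was not tested.

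Among 16 tested Sm and LSm proteins, which form rings on snRNAs, 5 were up-regulated and 1 down-regulated. Snrpb rose from 22.1 ± 0.790 to 29.4 ± 1.80 CPM (log2FC 0.41), Snrpe by 0.49, Snrpf by 0.37, Lsm3 by 0.63 and Lsm10, a subunit of the U7 particle, by 0.52. Snrpn was the one that fell. It encodes SmN, which takes the place of the Snrpb product in the ring in neurons. Of 16 proteins specific to single snRNPs, Sf3b1 rose by 0.23 and Snrnp70, the U1 protein, and Snrnp48, of the minor spliceosome, fell by 0.16 and 0.26.

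The counts in each list are read against 15.8% of all tested rows up-regulated and 12.1% down-regulated. For the snoRNA particles, 2 of 5 C/D box proteins rose, the methyltransferase Fbl by 0.51 (SE 0.12) and Nop58 by 0.32 (SE 0.08), and 1 of 5 H/ACA box proteins, Gar1, by 0.49 (SE 0.17). The 5S and Y RNA binding list had 3 of 5 up-regulated. Rpl11 rose by 0.50 and Rpl5 by 0.39, both ribosomal proteins that bind 5S rRNA, and Ssb, the La protein that binds the ends of RNA polymerase III transcripts, rose by 0.27. In the miRNA list 2 of 13 fell, Ago3 by 0.24 and Tnrc6a by 0.13, both parts of the silencing complex. None of 15 snRNP assembly factors and none of 12 RNA polymerase III genes passed edgeR's test.

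**Figure D5:**
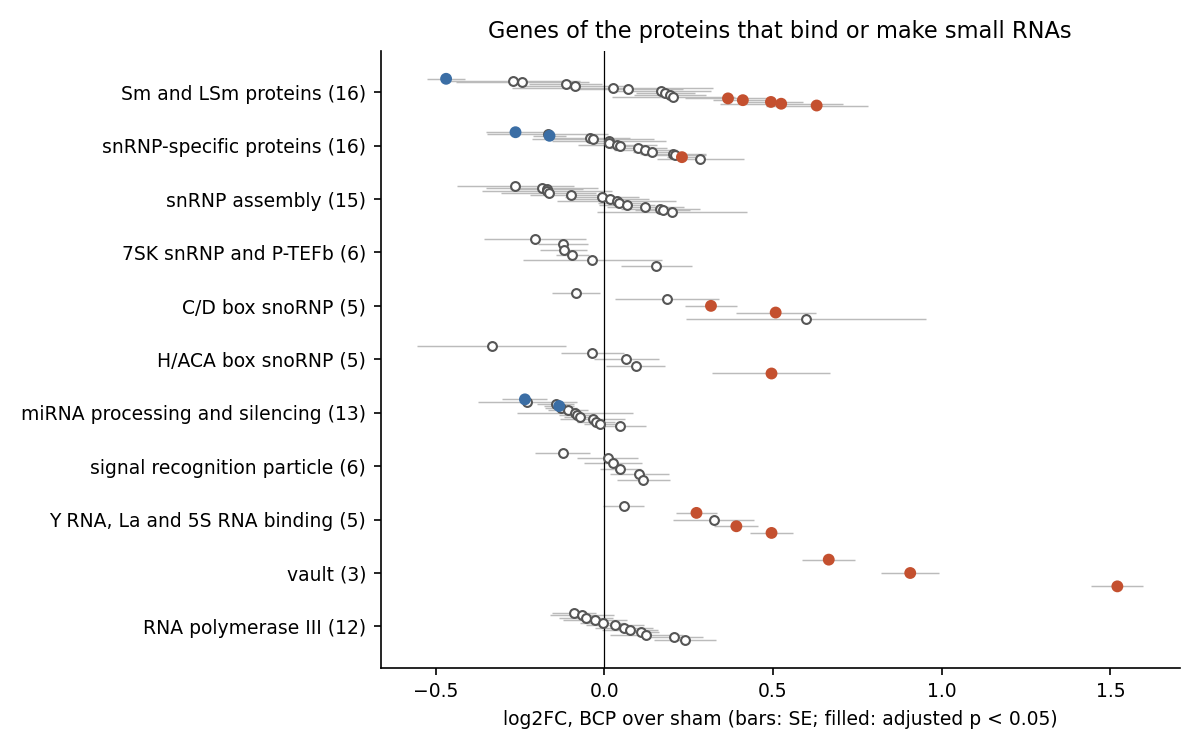
Change between BCP and sham (log2FC, horizontal axis, bars are SE) for the 102 tested genes of 11 lists of small RNA partner proteins, with 1 row per list and filled points for an adjusted p under 0.05. All 3 vault genes lie above 0.5, and the 7SK, SRP, snRNP assembly and RNA polymerase III lists hold open points only.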

How the data were processed

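Total RNA libraries of 3 sham and 3 BCP samples were analysed. After Seqtk filtering, the authors aligned reads with HISAT2 2.0.4 (genome build Rnor_6.0) and deposited raw counts and FPKM per gene (StringTie 1.3.0), and raw counts per lncRNA transcript. The counting program, its use of strand and its handling of multiply mapped reads are not given in the sources used here. FPKM served only to compare levels between genes.

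The counts of the whole gene table were filtered with filterByExpr, scaled by TMM (factors 0.982 to 1.02) and tested with edgeR 4.0.16 (R 4.3.3; robust quasi-likelihood fit, condition only), with Benjamini-Hochberg adjustment over 14908 rows. A call needed an adjusted p under 0.05 and an absolute log2FC over 1. Class sums in CPM were compared with exact two-sided permutation tests (SciPy 1.17.1). The code was tested on simulated data. Libraries of a group differed by more than sampling noise (chi-square per degree of freedom 3.48 to 6.04).

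Named rows were the 3 most abundant tested rows of each class, the 5 of smallest p in each direction, rows past both thresholds, and the 7SK rows summed. Named partner genes were those past an adjusted p of 0.05, otherwise up to 4 of highest CPM per list. The rows, lists and tests were chosen with earlier results of these data known. Rows named outside this rule are the SRP row in Akap2, a pair of snoRNA runs, genes beside repeats, Hexim2, Mepce and RNase P and MRP rows. All were chosen after their values were seen. Alternatives were DESeq2 1.42.0, upper-quartile or library-size scaling, other filters, the replicate number as a block, each library left out, summed names and, chosen after seeing the data, the lncRNA table.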

Additional observations from a re-analysis of the deposited data

How the results depend on the processing

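Of the comparisons of counts and classes, 152 values under alternatives stayed on the same side with a similar size, 16 moved and 2 changed sign. Small RNA rows past both thresholds numbered 0 to 1 when each library was left out, 1 with no filter on low counts, and 5 when the fold change was not used. The 1 row was the 7SK row in Dock10 without sham 1, the SRP row in Akap2 without sham 2, and with no filter a 7SK row on an unplaced scaffold with 6, 8 and 6 counts in sham and 0, 2 and 1 in BCP. Rows lower at an adjusted p under 0.05 numbered 2 with rows of the same name summed and 2 to 6 with a library left out, being 2 without sham 3 and 3 without sham 1, BCP 2 or BCP 3. Rows higher numbered 0 to 1. Partner genes called numbered 20 when the fold change was not used, which is the 15 higher and 5 lower of the report. Partner genes lower numbered 2 with library size only and 2 to 5 with a library left out (2 without sham 3 or BCP 2, and 3 without sham 1 or BCP 3). With only the rows that pass the filter, the class log2 ratio turned to -0.0475 for spliceosomal snRNA and -0.34 for 5S rRNA. Those sums held 12 of 379 and 2 of 61 rows, and the cause of the turn was not tested.

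Rows whose log2FC lay near 0 changed sign. With upper-quartile scaling the SCARNA7, SNORA81 and chr18:4314467 7SK rows were at -0.0068, -0.0057 and -0.026. With a library left out, log2FC ranged from -0.25 to 0.012 for SCARNA2, -0.077 to 0.65 for SNORA19 on chromosome 9, -0.42 to 0.026 for U4, -0.068 to 0.16 for SCARNA7, -0.30 to 0.079 for 5S rRNA on chromosome 9, -0.060 to 0.17 for SNORA81, -0.19 to 0.16 for U1, -0.16 to 0.17 for U6 and -0.077 to 0.10 for the 7SK row at chr18:4314467. None of these passed the test in any setting. The cause of these changes was not tested.

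The replicate numbers did not pair the samples: same-numbered libraries deviated with correlations of -0.11, 0.04 and -0.04. With the replicate number as a block, 0 small RNA rows passed both thresholds, and 5 were lower and 0 higher. No small RNA row named in the report changed its call. Partner genes numbered 5 lower and 13 higher, against 5 lower and 15 higher without the block. Not every library correlated best with its own number.

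Low counts limit most rows: the tested rows had a median of 15 counts per library and a median SE of 0.36.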
